A study of Mus musculus with 21 samples.

Results

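Opposite-strand RNAs are transcripts that the mouse gene annotation names after a neighbouring gene with the ending os, because they are transcribed from the other DNA strand at the same locus. In the time course of mouse embryonic stem cells (ESCs), 292 genes carried such a name, had a partner gene under the stem of that name in the same tables, and were not named after a Hox gene. The 51 RNAs with at least 1 TPM (a read level scaled for gene length and to the same sum in every library) in at least 3 of the 15 libraries are described here, out of 32285 genes listed and 13948 genes that passed the same filter. The other 241 named RNAs did not pass it, and 78 of those were listed at 0 in every library. The 51 RNAs belong to 50 partner genes, since Tbx3 has a pair of them, and 47 of the partners passed the filter. Crx, Ptprt and Srrm4 did not. Just outside the filter, the third-highest library stood at 0.963 TPM for Pcsk2os1 and 0.929 TPM for Lrrc8dos, and just inside it stood at 1 TPM for Arhgap27os2, 1.01 TPM for Zfp652os and 1.03 TPM for Faddos.

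The time course held 5 groups of 3 libraries of polyadenylated RNA from wild type ESCs. The starting cells (0 h) grew in serum with LIF and the 2i inhibitors PD0325901 (MEK) and CHIR99021 (GSK3). Cells without retinoic acid (RA) were taken 12 h and 24 h after LIF and 2i were withdrawn, and cells with RA received 2 µM of it for 12 h or 24 h. It is not stated in the labels if the RA cells had also lost LIF and 2i. Since every later group without RA had left that medium, its withdrawal and the time in culture cannot be told apart. A separate set compared wild type with Cyp26a1 knockout cells, 3 libraries each, all given RA for 24 h without LIF and 2i. The labels name no cell line beyond ESC and no knockout clone. All 8 markers of pluripotent stem cells averaged at least 1 TPM in every group, and the fibroblast list summed to between 4.53 and 18.1 TPM per library.

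Many mammalian promoters fire in both directions, and an RNA that starts beside or inside a gene on the other strand is often made from the same open chromatin. Other opposite-strand RNAs run across the exons or the end of their partner, and some of the genes so named in fact encode proteins. In ESCs, withdrawal of LIF and 2i starts the exit from naive pluripotency, and RA, a ligand of nuclear receptors, directs the leaving cells along other lineages. Both treatments change transcription factors and Wnt pathway genes, several of which carry an opposite-strand RNA.

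The promoter sequence of 31 of the 51 RNAs was taken from RefSeq (build GRCm38.p6). The windows hold 300 bases from 250 before to 50 after the annotated start, printed in the direction of transcription. Windows of RNAs and partners on the chromosome of Rbfaos and Epb41l4aos were left out, while the set of all windows kept that chromosome. The 4 shown belong to loci the results turn on, with each CG dinucleotide in capitals. Crxos is on the plus strand at chr7:15882367-15882666, Tbx3os2 on the minus strand at chr5:119691169-119691468, Fzd10 on the plus strand at chr5:128600856-128601155 (its RefSeq start lies 262 bases from its start in the tables) and Map2k3os on the minus strand at chr11:60931818-60932117.
Crxos: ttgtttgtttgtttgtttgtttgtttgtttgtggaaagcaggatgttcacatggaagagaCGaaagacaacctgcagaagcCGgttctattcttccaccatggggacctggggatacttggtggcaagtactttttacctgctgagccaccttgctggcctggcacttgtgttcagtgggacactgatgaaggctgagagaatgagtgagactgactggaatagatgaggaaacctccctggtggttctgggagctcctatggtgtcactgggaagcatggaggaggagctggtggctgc
Tbx3os2: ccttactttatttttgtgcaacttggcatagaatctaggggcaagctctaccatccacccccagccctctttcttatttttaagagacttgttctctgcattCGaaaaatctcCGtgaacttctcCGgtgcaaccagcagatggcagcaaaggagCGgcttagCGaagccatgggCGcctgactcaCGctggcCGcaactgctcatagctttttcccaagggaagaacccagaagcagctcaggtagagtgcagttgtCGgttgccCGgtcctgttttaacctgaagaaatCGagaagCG
Fzd10: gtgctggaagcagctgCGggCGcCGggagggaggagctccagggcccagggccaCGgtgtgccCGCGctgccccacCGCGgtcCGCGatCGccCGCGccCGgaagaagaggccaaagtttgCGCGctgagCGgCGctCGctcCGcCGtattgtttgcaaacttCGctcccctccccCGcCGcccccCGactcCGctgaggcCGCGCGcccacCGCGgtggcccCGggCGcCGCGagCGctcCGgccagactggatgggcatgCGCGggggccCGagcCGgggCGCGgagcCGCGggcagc
Map2k3os: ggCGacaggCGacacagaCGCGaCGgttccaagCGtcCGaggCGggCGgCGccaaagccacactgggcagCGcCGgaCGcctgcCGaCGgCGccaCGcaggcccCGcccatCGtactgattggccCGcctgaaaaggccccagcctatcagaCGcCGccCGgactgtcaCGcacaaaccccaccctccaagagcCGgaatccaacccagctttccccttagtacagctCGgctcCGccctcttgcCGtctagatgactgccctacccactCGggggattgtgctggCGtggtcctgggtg
RefSeq gives 3 starts for Crxos, and the one shown is at the start in the tables, while the windows of the other starts hold 4 and 0 CG. The Crxos window shown holds 2 CG, the Tbx3os2 window 12, the Map2k3os window 30 and the Fzd10 window 45. Over the 35 windows of the RNAs the median was 15 CG, over those of the partners 21.5 CG and over all 32851 windows 7 CG. At least 10 CG were present in a window of 24 of the 31 RNAs, against 43.5% of all windows. Both members of 23 pairs had a window, and in 10 of those pairs the windows shared bases. The Map2k3os window shares 286 of its 300 bases with that of Map2k3. AGGTCA, the core motif that nuclear receptors bind, was found on either strand in a window of 3 of the 31 RNAs (Cebpzos, Rab10os and Tomm6os) and in 16.3% of all windows.

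All 51 RNAs lie on the strand opposite to their partner. The 5′ ends overlap in 21 pairs, and in 8 the genes diverge from separate starts. In 9 pairs the RNA lies inside the partner, in 7 the 3′ ends overlap, in 5 the genes converge without overlap, and Tnfsf13 lies inside Tnfsf13os. GENCODE M21 lists 37 of the RNAs as antisense, 6 as lincRNA, 1 as a processed transcript and 7 as protein coding (Brd3os, Ccpg1os, Cdiptos, Cebpzos, Crxos, Slc7a6os and Wdr83os). Exon bases were shared with the partner in 32 pairs and not in 19. The share of the RNA's exon bases was at least 50% in 3 pairs, namely Arhgap27os2 with 75.9%, Zfhx2os with 73.1% and Wdr83os with 52.3%. Whether the libraries kept strand is not stated, so reads over shared exons, or from unspliced partner RNA around an RNA inside it, cannot be assigned with certainty to either gene.

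The RNAs were scarce. Their mean TPM over the 15 libraries had a median of 2.65, against 15.3 for the partners and 13.2 for all genes tested, and 37 RNAs stood below their partner. Cebpzos (87.5 TPM), Slc7a6os (77.8 TPM), Epb41l4aos (69.0 TPM), Crxos (51.2 TPM) and Wdr83os (48.7 TPM) had the highest means. Of these, Epb41l4aos is the only one not listed as protein coding. The median coverage per base was 1.54 to 3.21 reads over the RNAs and 8.07 to 16.8 over the partners, from 2.96 to 3.91 aligned gigabases per library. Libraries of one group also differed along a shared axis, the first principal component of the deviations from the group means, which held 67.2% of the within-group variance. At 12 h without RA replicate 1 stood at 31.8 on it and replicate 2 at -43.5, and at 24 h with RA replicate 2 stood at 51.6 and replicate 3 at -29.5. Whole groups also differed on the axis. The libraries stood at -37.1, -41.1 and -33.8 at 12 h with RA and at 31.5, 23.2 and 39.0 at 24 h without RA. Etaa1, a replication stress factor, moved with the axis, at 8.32, 1.34 and 2.12 TPM at 12 h without RA and 2.50, 8.07 and 1.41 TPM at 24 h with RA. How far group differences of such genes follow the axis was not tested.

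**Figure D1:**
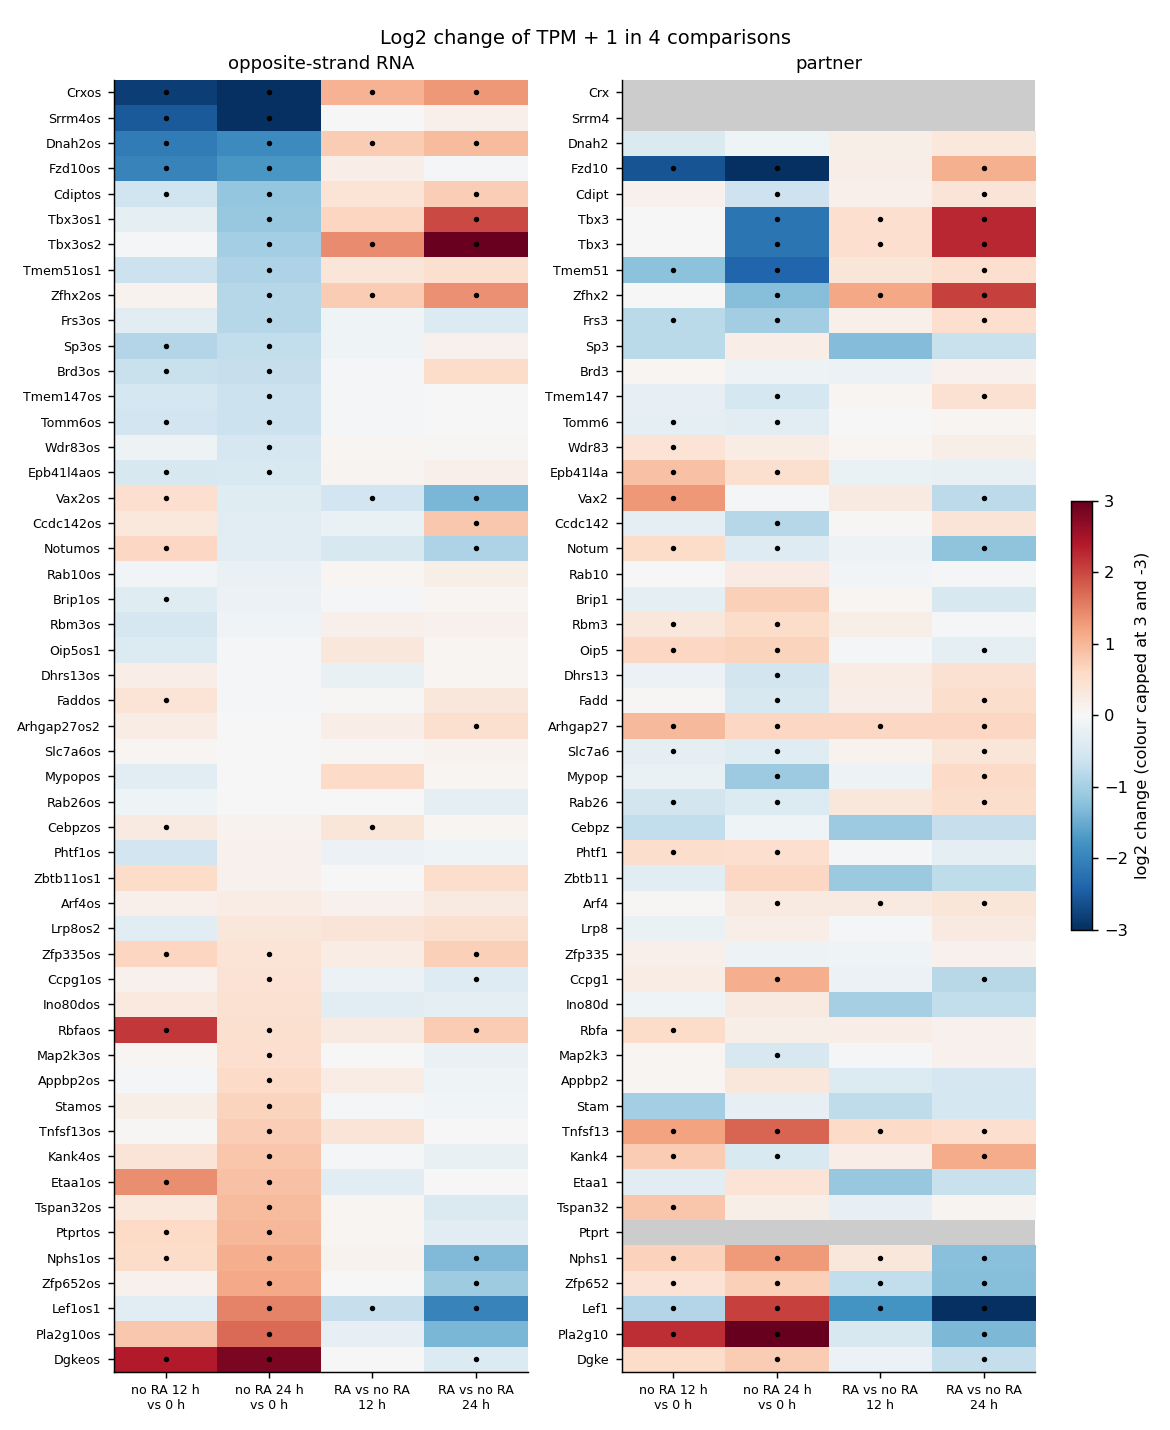
Log2 change of TPM + 1 for the 51 opposite-strand RNAs (left) and their partners (right, same order) in the 4 comparisons, with red for higher and blue for lower. A dot marks an adjusted p below 0.05 and grey marks partners that were not tested. Crxos and Srrm4os at the top fell most at 24 h without RA, and Dgkeos at the bottom rose most.

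After LIF and 2i were withdrawn, the RNAs that changed most were Crxos and Srrm4os, which fell, and Dgkeos, which rose. Changes are given as log2 differences of TPM + 1 with their standard errors, tested with limma over all 13948 genes. The added 1 shrinks the changes of scarce genes. A smaller value for an RNA than for a more abundant partner may thus reflect its level. At 12 h without RA 10 RNAs had risen from 0 h and 10 had fallen, at an adjusted p below 0.05, against a background of 22.0% and 20.4% of all genes. At 24 h 16 had risen and 16 had fallen, against 25.4% and 26.5%. In percent, 19.6% of the RNAs were higher and 19.6% lower at 12 h, near the background, and 31.4% each way at 24 h, a little above it. Both times were compared with the same 0 h libraries. The 47 partners gave 15 rises and 7 falls at 12 h, and 13 rises and 17 falls at 24 h. In bulk libraries, fewer cells of a type and less RNA per cell cannot be told apart.

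Crxos, which encodes a homeodomain protein in the mouse, lies at chr7:15882617-15904020, and its start is 2649 bases from that of Crx, a photoreceptor transcription factor. It stood at 130, 172 and 166 TPM at 0 h. Without RA it stood at 24.0, 16.6 and 22.8 TPM at 12 h and at 7.08, 10.9 and 11 TPM at 24 h. All libraries of each later time lay below all of the earlier one. The change was -2.83 ± 0.18 at 12 h (limma adjusted p = 3.05e-08) and -3.89 ± 0.18 at 24 h (limma adjusted p = 1.08e-09). Crx itself was at or near 0 throughout, with a highest library of 0.0629 TPM.

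Srrm4os (chr5:116438720-116465487) overlaps the 3′ end of Srrm4, a splicing regulator of neurons, and shares 68 exon bases with it. It stood at 17.6, 18.8 and 20.5 TPM at 0 h, at 2.32, 2.53 and 2.58 TPM at 12 h without RA and at 0.292, 0.839 and 0.788 TPM at 24 h. The groups did not overlap, and the change reached -3.62 ± 0.23 at 24 h (limma adjusted p = 2.41e-08). Srrm4 was low, at 0.964, 0.813 and 1.02 TPM at 0 h and at 0.203, 0.22 and 0.110 TPM at 24 h, and was not tested. At 24 h with RA Srrm4os stood at 0.428, 1.18 and 0.857 TPM, which overlapped the libraries without RA.

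Dnah2os lies inside Dnah2, which encodes a heavy chain of the dynein motor of cilia, and shares 36.3% of its exon bases with it. It stood at 6.95, 5.45 and 5.45 TPM at 0 h, at 0.652, 0.562 and 0.676 TPM at 12 h and at 0.825, 0.829 and 0.896 TPM at 24 h without RA. Its fall was -2.09 ± 0.16 at 12 h and -1.90 ± 0.16 at 24 h (limma adjusted p = 2.02e-07 and 3.48e-07). Dnah2 went from 1.85, 2.03 and 1.46 TPM to 2.02, 1.04 and 1.64 TPM at 24 h, with a change of -0.13 ± 0.17 (limma adjusted p = 0.560). At 12 h it stood at 0.705, 0.977 and 1.52 TPM, with a change of -0.44 ± 0.17 (limma adjusted p = 0.0525).

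Fzd10os (chr5:128579106-128600693) and Fzd10, a Wnt receptor of the Frizzled family, diverge from starts 151 bases apart and share no exon base. Fzd10os stood at 5.12, 5.94 and 6.05 TPM at 0 h, at 0.365, 0.529 and 1.24 TPM at 12 h and at 0.874, 1.77 and 0.518 TPM at 24 h without RA. Fzd10 stood at 57.4, 48 and 49.7 TPM at 0 h, at 7.53, 7.67 and 8 TPM at 12 h and at 2.09, 1.84 and 1.67 TPM at 24 h. Both fell at 12 h, by 2.00 for Fzd10os and by 2.59 for Fzd10 on the log2 scale. Mean TPM went from 5.7 to 0.71 for Fzd10os and from 51.7 to 7.73 for Fzd10. The smaller value for Fzd10os therefore does not show a smaller fall. From 12 h to 24 h the level of Fzd10 fell further with no overlap, whereas the 12 h and 24 h libraries of Fzd10os overlapped.

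Dgkeos (chr11:89064729-89069098) overlaps the start of Dgke, the epsilon diacylglycerol kinase, and shares 100 exon bases with it, 4.69% of its own. It stood at 1.29, 1.21 and 1.37 TPM at 0 h, at 10, 13.1 and 10.2 TPM at 12 h and at 14.6, 14.8 and 16.5 TPM at 24 h without RA. The groups lay apart, and the rise was 2.39 ± 0.14 at 12 h and 2.83 ± 0.14 at 24 h (limma adjusted p = 1.78e-08 and 2.45e-09). Dgke rose less at 24 h, by 0.76 ± 0.26 (limma adjusted p = 0.0263), and that call was lost when any of 5 single libraries was left out.

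Rbfaos, a lincRNA that overlaps the 3′ end of Rbfa, a ribosome binding factor of mitochondria, was highest at 12 h. It stood at 6.88, 5.87 and 7.47 TPM at 0 h, at 30.1, 35.3 and 32.5 TPM at 12 h and at 9.86, 9.30 and 9.89 TPM at 24 h without RA. The 12 h libraries lay above all others without RA, with a rise of 2.12 ± 0.11 (limma adjusted p = 3.74e-09). Rbfa rose by 0.54 ± 0.09 at 12 h (limma adjusted p = 0.000388).

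Further RNAs were higher at 24 h than at 0 h without RA together with their partners. Lef1os1 overlaps the start of Lef1, which encodes a DNA-binding partner of beta-catenin in the Wnt pathway, and it stood at 1.06, 1.20 and 1.24 TPM at 0 h and at 5.36, 5.28 and 4.65 TPM at 24 h. Lef1 stood at 20.2, 16.5 and 17.9 TPM and then at 79.7, 80.4 and 73.3 TPM. The rises were 1.49 ± 0.12 for Lef1os1 and 2.04 ± 0.13 for Lef1 (limma adjusted p = 2.63e-07 and 2.84e-08). At 12 h without RA Lef1 had first fallen, to 10.2, 9.6 and 8.69 TPM, a change of -0.87 ± 0.13 (limma adjusted p = 0.000116), and Lef1os1 stood at 0.796, 0.943 and 0.532 TPM, a difference of -0.31 ± 0.12 (limma adjusted p = 0.0522). Nphs1os, inside the gene of the kidney filter protein nephrin (Nphs1), rose by 1.10 ± 0.16 and Nphs1 by 1.28 ± 0.08 (limma adjusted p = 5.95e-05 and 3.74e-08).

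Pla2g10os overlaps the start of Pla2g10, a secreted phospholipase, without sharing exon bases. It was listed at 0 in all 3 libraries at 0 h and stood at 4.59, 0 and 4.97 TPM at 24 h without RA. The groups thus overlapped although the test passed (limma adjusted p = 0.0262). It reached 1 TPM only after withdrawal without RA, so it passed the filter through groups where it was high. Its call against 0 h was therefore in part fixed by the filter. Pla2g10 rose without overlap, from 3.9, 3.61 and 3.18 TPM to 38.6, 35.3 and 41.6 TPM. Zfp652os was listed at 0 in all 0 h libraries and stood at 1.61, 1.06 and 1.01 TPM at 24 h without RA, the only group in which it reached 1 TPM. It passed the filter through that group alone, so it had to differ there.

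Among the protein-coding members, Cdiptos, which overlaps the start of Cdipt, the phosphatidylinositol synthase, stood at 2.18, 1.53 and 2.23 TPM at 0 h and at 0.0876, 0.677 and 0.249 TPM at 24 h without RA. It fell by 1.17 on the log2 scale and Cdipt by 0.62 (limma adjusted p = 3.61e-05 and 0.000107). Wdr83os, a protein of the endoplasmic reticulum that shares 52.3% of its exon bases with Wdr83, went from 55.7, 55.9 and 59.5 TPM to 40.3, 44.8 and 35.3 TPM, a change of -0.50 ± 0.10 (limma adjusted p = 0.000735). The antisense RNA Etaa1os, whose start is 95 bases from that of Etaa1, stood at 2.11, 1.52 and 3.83 TPM at 0 h and at 5.49, 9.08 and 9.29 TPM at 12 h, a rise of 1.39 ± 0.30 (limma adjusted p = 0.00207).

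**Figure D2:**
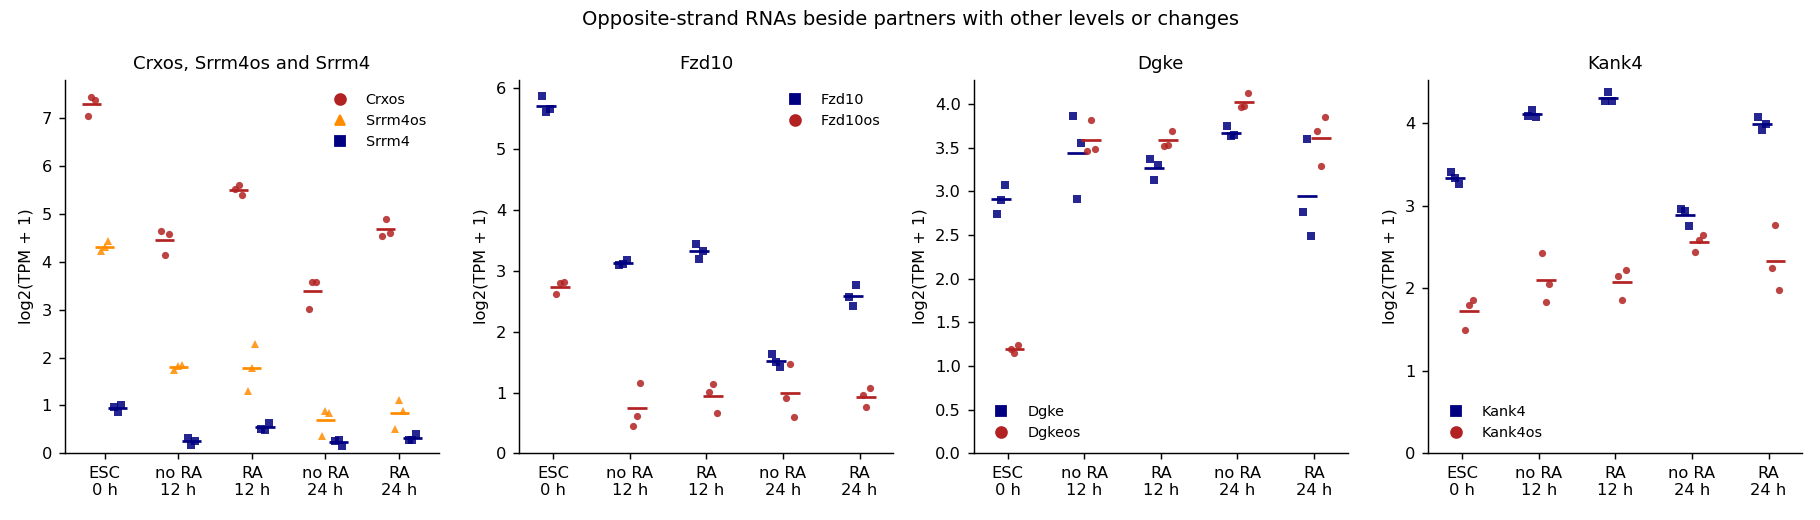
Log2(TPM + 1) of opposite-strand RNAs and partners in every library of the 5 groups, with a bar for the mean of each group of 3. Crxos and Srrm4os fell from 0 h, and Dgkeos rose more than Dgke. At 24 h Fzd10 stood higher with RA than without it while Fzd10os overlapped, and Kank4 and Kank4os differed.

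Fewer of the RNAs were called with RA than after withdrawal. Compared with cells without RA at the same time, 5 RNAs had risen and 2 had fallen at 12 h, against a background of 10.2% and 7.19%. With quantile normalization the 12 h split was 5 higher and 1 lower. At 24 h 10 had risen and 7 had fallen, against 22.8% and 12.5%, and the members' shares of 19.6% and 13.7% were near it. The partners gave 6 rises and 2 falls at 12 h, and 15 rises and 9 falls at 24 h. Without replicate 2 at 12 h without RA 13 partners were called at 12 h. With replicate 2 at 24 h with RA left out, 38 were called at 24 h. The shares of all genes under these omissions are not given here, so neither count is read as particular to the partners. RA markers summed to 533 to 543 TPM per library at 12 h with RA and to 14.6 to 23.2 TPM in the groups without RA.

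The largest rise was at Tbx3, a T-box transcription factor of naive stem cells. Tbx3os2 (chr5:119685095-119691218) ends 370 bases beyond the 3′ end of Tbx3 and shares no exon base with it. It stood at 1.58, 2.17 and 1.83 TPM at 12 h without RA and at 6.76, 8.02 and 5.37 TPM with RA. At 24 h it stood at 0.470, 0.608 and 0.254 TPM without RA and at 10.4, 8.74 and 11.8 TPM with RA. The libraries lay apart at both times, with rises of 1.42 ± 0.16 and 2.97 ± 0.16 (limma adjusted p = 4.10e-05 and 1.97e-08).

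Tbx3os1 (chr5:119570130-119671365) overlaps the start of Tbx3 and shares 115 exon bases with it. At 24 h it stood at 0.398, 0.150 and 0.808 TPM without RA and at 5.79, 3.11 and 5.31 TPM with RA. The rise was 1.97 ± 0.30 (limma adjusted p = 0.000192). Its listed mean coverage was low, at 0.0252 reads per base without RA and 0.28 with RA, against 16.6 for Tbx3os2 with RA. At 12 h its libraries overlapped, and the change was 0.64 ± 0.30 (limma adjusted p = 0.177). Tbx3 stood at 21.2, 20.0 and 19.6 TPM without RA at 24 h and at 110, 94.9 and 101 TPM with RA, and had stood at 98.3, 91.0 and 97.3 TPM at 0 h. Its rise was 0.50 ± 0.06 at 12 h and 2.27 ± 0.06 at 24 h (limma adjusted p = 0.000107 and 3.00e-11). The 24 h libraries of Tbx3 with RA lay near those at 0 h, and those of Tbx3os2 lay above its 0 h libraries of 1.49, 2.12 and 2.22 TPM.

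Zfhx2os overlaps the 3′ end of Zfhx2, a zinc finger homeobox gene, and shares 73.1% of its exon bases with it, where reads cannot be assigned with certainty to either gene. It stood at 0.594, 0.610 and 0.873 TPM at 24 h without RA and at 4.08, 3.39 and 2.80 TPM with RA. Zfhx2 stood at 6.81, 6.40 and 5.86 TPM and at 31.8, 29.3 and 27.9 TPM. Both rose, by 1.38 ± 0.15 and 2.06 ± 0.09 at 24 h, and by 0.77 ± 0.15 and 1.17 ± 0.09 at 12 h (limma adjusted p of at most 0.00209).

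Crxos and Dnah2os, which fell without RA, stood higher with it. Crxos stood at 44.7, 47.3 and 41.2 TPM at 12 h and at 22.3, 28.9 and 23.4 TPM at 24 h with RA, above all libraries without RA at the same time and below all at 0 h. Its RA difference was 1.05 ± 0.18 at 12 h and 1.3 ± 0.18 at 24 h (limma adjusted p = 0.000843 and 7.72e-05). Dnah2os stood at 2.20, 1.95 and 1.18 TPM and at 2.00, 2.67 and 3.08 TPM with RA, differences of 0.75 ± 0.16 and 0.94 ± 0.16 (limma adjusted p = 0.00438 and 0.000419). Cebpzos was higher with RA at 12 h by 0.36 ± 0.10 (limma adjusted p = 0.0179). Zfp335os, which overlaps the start of the zinc finger gene Zfp335, was higher at 24 h by 0.72 ± 0.15, with libraries of 5.02, 4.90 and 5.02 TPM against 2.58, 2.55 and 2.75 TPM (limma adjusted p = 0.00216). Rbfaos stood at 18.3, 14.5 and 18.8 TPM at 24 h with RA, above the libraries without RA, by 0.76 ± 0.11 (limma adjusted p = 9.88e-05). The other RNAs higher at 24 h were Ccdc142os (0.80), Cdiptos (0.74) and Arhgap27os2 (0.47), and Ccpg1os (-0.38), Dgkeos (-0.42) and Zfp652os (-1.06) were among the lower ones, as log2 changes. Arhgap27os2 reached 1 TPM only in libraries with RA, so its rise was in part fixed by the filter. Zfp652os, counted among the 7 falls, passed the filter only through the 24 h libraries without RA and so had to be lower with RA. The call of Dgkeos was lost under 10 of the other settings, among them the omission of RA replicate 2.

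The largest fall was that of Lef1os1. It stood at 0.796, 0.943 and 0.532 TPM at 12 h without RA and at 0.161, 0.0562 and 0.0393 TPM with RA, and at 24 h with RA at 0.681, 0.395 and 0.477 TPM. Lef1 stood at 1.88, 1.75 and 2.43 TPM at 12 h and at 8.74, 6.05 and 8.13 TPM at 24 h with RA. Both genes were lower with RA without overlap, Lef1os1 by -0.69 ± 0.12 and -2.01 ± 0.12 and Lef1 by -1.80 ± 0.13 and -3.20 ± 0.13 (limma adjusted p of at most 0.00108). Lef1os1 shares 39.4% of its exon bases with Lef1.

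Vax2os, beside the eye homeobox gene Vax2 and without shared exon bases, stood at 3.37, 2.49 and 2.94 TPM at 24 h without RA and at 0.434, 0.429 and 0.750 TPM with RA. Its change was -1.36 ± 0.17, and that of Vax2 was -0.78 ± 0.17 (limma adjusted p = 3.88e-05 and 0.0026). At 12 h the fall of Vax2os of -0.58 ± 0.17 (limma adjusted p = 0.0305) was lost under 9 of the other settings. Nphs1os stood at 3.63, 3.19 and 4 TPM without RA and at 0.686, 1.13 and 0.745 TPM with RA at 24 h, and Nphs1 at 27.9, 24.9 and 29.0 TPM and 11.5, 11.3 and 9.78 TPM. They fell by 1.32 and by 1.25 on the log2 scale (limma adjusted p = 2.58e-05 and 1.10e-07). Notumos overlaps the start of Notum, an enzyme that inactivates Wnt proteins, and stood at 3.01, 2.27 and 2.18 TPM without RA and at 1.11, 0.405 and 1.06 TPM with RA. It fell by 0.92 and Notum by 1.20 (limma adjusted p = 0.0011 and 1.76e-06).

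**Figure D3:**
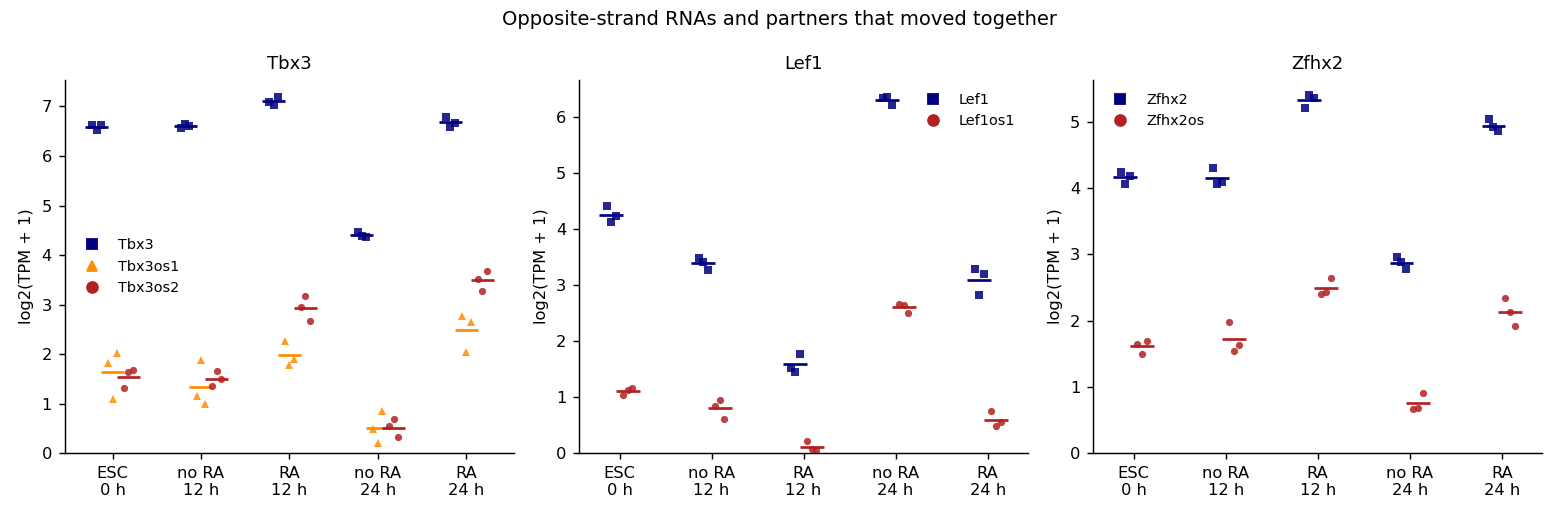
Log2(TPM + 1) of Tbx3, Lef1, Zfhx2 and their opposite-strand RNAs in every library, with a bar for the mean of each group of 3. At 24 h Tbx3, Zfhx2 and their RNAs stood higher with RA and Lef1 and Lef1os1 lower, with no overlap between the groups.

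The RA difference itself changed between 12 h and 24 h for 4 of the 51 RNAs, 1 upward and 3 downward, against a background of 4.17% and 2.68%. Tbx3os2 gained 1.55 ± 0.23 (limma adjusted p = 0.00127). Nphs1os changed by -1.43 ± 0.22 and Lef1os1 by -1.32 ± 0.17 (limma adjusted p = 0.00166 and 0.000399), and the other was Zfp652os, whose call follows from having passed the filter only through the 24 h libraries without RA. Their partners Tbx3 (1.78 ± 0.09), Nphs1 (-1.58 ± 0.12) and Lef1 (-1.40 ± 0.18) changed in the same direction (limma adjusted p of at most 0.000492), whereas Zfp652 changed by -0.52 ± 0.20 (limma adjusted p = 0.162). Mean TPM of Lef1os1 was 0.757 without RA and 0.0854 with it at 12 h, and 5.1 and 0.518 at 24 h. The pseudocount of 1 shrinks the 12 h difference more. The call for Lef1os1 therefore does not show that its RA ratio differed between the times. With the within-group axis as a covariate, 9 RNAs were called, and the share of all genes under that setting is not given here.

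Where both members of a pair were called, they mostly moved the same way. This was so for 6 of 7 such pairs at 12 h and 16 of 19 at 24 h without RA, and for 3 of 3 and 12 of 12 with RA at 12 h and 24 h. Among the other 3855 pairs of opposite-strand genes within 5 kb, the share was 69.9%, 73.5%, 91.3% and 80.3% in the same order, so a majority of same-direction pairs was common at such loci. Among members with shared exon bases the share was 100% in all 4 comparisons, as 4 of 4, 11 of 11, 2 of 2 and 9 of 9 pairs. Among members without them it was 2 of 3, 5 of 8, 1 of 1 and 3 of 3. The shares thus differed only in the comparisons without RA, on few pairs. The part that shared reads play in this difference was not tested.

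**Figure D4:**
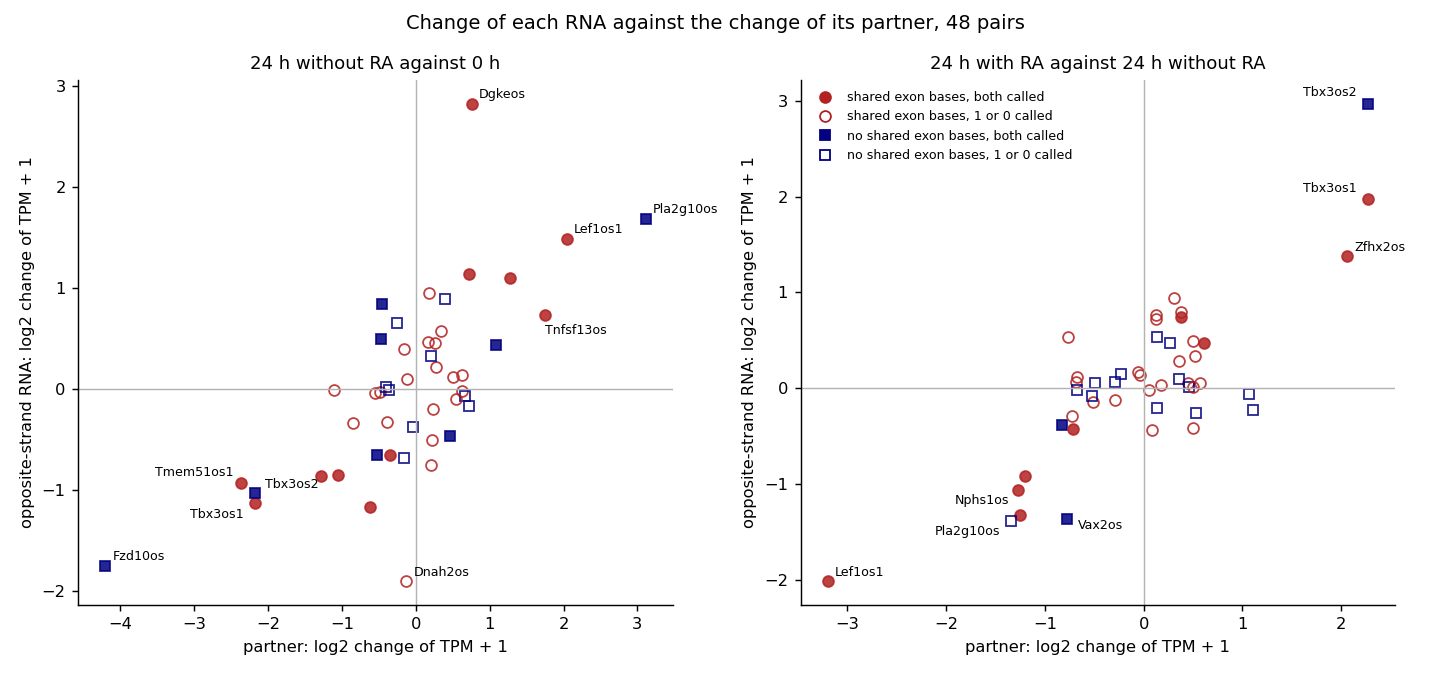
Change of each opposite-strand RNA (y axis) against that of its partner (x axis), as log2 differences of TPM + 1, for 48 pairs at 24 h without RA against 0 h (left) and with RA against without RA at 24 h (right). Filled symbols mark pairs with both members called. Of these, 16 of 19 on the left and 12 of 12 on the right lie in the quadrants of the same direction.

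The 3 pairs called in opposite directions at 24 h without RA share no exon base. Epb41l4aos is a lincRNA that ends 340 bases from the 3′ end of Epb41l4a, a FERM domain gene. It stood at 84.5, 90.2 and 83.5 TPM at 0 h and at 62.8, 56.4 and 67.7 TPM at 24 h, and Epb41l4a stood at 45.5, 43.5 and 47.5 TPM and then at 66.8, 62.7 and 60.8 TPM. The groups lay apart for both genes, with changes of -0.46 ± 0.09 and 0.47 ± 0.11 (limma adjusted p = 0.000741 and 0.00227). At 12 h the pair was also called in opposite directions, by -0.47 ± 0.09 and 0.87 ± 0.11.

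Map2k3os and Map2k3, a kinase that activates p38, diverge from starts 166 bases apart, within the window printed above. Map2k3os stood at 5.10, 4.65 and 4.37 TPM at 0 h and at 6.36, 7.23 and 7.60 TPM at 24 h without RA. Map2k3 stood at 102, 99.3 and 92.9 TPM and then at 71.5, 71.4 and 69.1 TPM. The RNA rose by 0.50 ± 0.16 and the partner fell by 0.47 on the log2 scale (limma adjusted p = 0.0183 and 0.000318). Kank4os, inside Kank4, a gene of the cytoskeleton, rose from 1.82, 2.48 and 2.63 TPM to 4.41, 5.01 and 5.24 TPM, while Kank4 fell from 9.63, 9.07 and 8.62 TPM to 6.75, 6.65 and 5.75 TPM. Their changes were 0.84 ± 0.20 and -0.45 ± 0.08 (limma adjusted p = 0.00367 and 0.000528). At 12 h Kank4 had instead risen, to 16, 16.8 and 15.8 TPM, by 0.77 ± 0.08 (limma adjusted p = 7.55e-06), and Kank4os stood at 4.39, 2.56 and 3.13 TPM, a change of 0.38 ± 0.20 (limma adjusted p = 0.150).

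The log ratio of RNA to partner was tested in 1 model over 3903 opposite-strand pairs, 48 of them members. It changed for 15 members at 12 h and 24 at 24 h without RA, when 41.1% and 43.8% of all such pairs changed. With RA it changed for 5 at 12 h and 10 at 24 h, against 14.4% and 27.4%. In each comparison the members' share was close to or below that of all pairs, or, at 24 h without RA, slightly above it. At 12 h with RA the count was 1 with a pseudocount of 0.1, and it was between 2 and 7 when single libraries were left out. Replicate 1 at 12 h without RA and replicate 2 at 24 h with RA were the highest of their groups on the within-group axis. Without this pair of libraries 25 members were called at 12 h without RA and 24 at 24 h with RA. The share of all pairs under that omission is not given here.

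At 24 h without RA the largest change was at Fzd10os, whose log ratio to Fzd10 rose by 2.45 ± 0.23 (limma adjusted p = 2.50e-06). At 24 h it was lower with RA than without RA by 1.13 on the log2 scale (limma adjusted p = 0.00262). Fzd10 with RA stood at 4.92, 4.38 and 5.80 TPM, above its 24 h libraries without RA and below its 12 h libraries with RA. Fzd10os stood at 0.942, 0.705 and 1.10 TPM, among its libraries without RA. The RA difference was 1.07 ± 0.11 for Fzd10 and -0.06 ± 0.23 for Fzd10os (limma adjusted p = 7.70e-06 and 0.844). Kank4 and Kank4os gave the largest change with RA at 24 h, -1.34 ± 0.24 (limma adjusted p = 0.00112). Kank4 stood at 15.8, 14.1 and 14.8 TPM, above its 24 h libraries without RA, and Kank4os overlapped at 3.73, 5.77 and 2.94 TPM. Replicate 2, the highest of these 3 Kank4os libraries, is the one that stood at 51.6 on the within-group axis.

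Dgkeos gained 1.85 ± 0.37 at 12 h and 2.07 ± 0.37 at 24 h on Dgke without RA (limma adjusted p = 0.00155 and 0.000616), and Dnah2os lost 1.64 and 1.77 on Dnah2, as changes of -1.64 ± 0.21 and -1.77 ± 0.21 (limma adjusted p = 4.79e-05 and 2.10e-05). Rbfaos gained 1.58 ± 0.08 on Rbfa at 12 h (limma adjusted p = 3.69e-08). Frs3os, inside Frs3, an adaptor of fibroblast growth factor receptors, lost against its partner with RA at 24 h, with a change of -0.91 ± 0.22 (limma adjusted p = 0.00883). It stood at 1.75, 1.64 and 2.57 TPM with RA, and Frs3 at 11.3, 10.1 and 10.1 TPM. Tbx3os2 gained 0.92 ± 0.17 on Tbx3 at 12 h with RA (limma adjusted p = 0.00322). Vax2os, at 5.18, 7.47 and 6.23 TPM without RA and 4.19, 3.06 and 4.33 TPM with RA at 12 h, changed by -0.86 ± 0.24 against Vax2 (limma adjusted p = 0.0309). Zfp652os gained 0.75 ± 0.18 (limma adjusted p = 0.0153), but it was listed at 0 in all but replicate 2 of both groups, and Zfp652, a zinc finger gene, was the member that fell, from 20.1, 15.8 and 17.8 TPM to 9.94, 10 and 10.5 TPM. Both calls at 12 h were lost when some single libraries were left out.

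For RNAs below about 1 TPM the log ratio depends on the pseudocount. The change of Lef1os1 against Lef1 with RA was 1.11 ± 0.13 at 12 h and 1.19 ± 0.13 at 24 h (limma adjusted p = 0.000107 and 2.70e-05), but with a pseudocount of 0.1 it was -0.05 and 0.25. Tmem51os1 stood at 1.20, 0.240 and 2.01 TPM at 0 h and at 0, 0.0829 and 0.101 TPM at 24 h without RA, and Tmem51, a membrane protein gene, at 32.9, 30.2 and 33.6 TPM and at 5.77, 5.47 and 5.10 TPM. The change of the RNA against its partner was 1.44 ± 0.27 at 24 h without RA (limma adjusted p = 0.000832) and -0.12 with a pseudocount of 0.1.

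**Figure D5:**
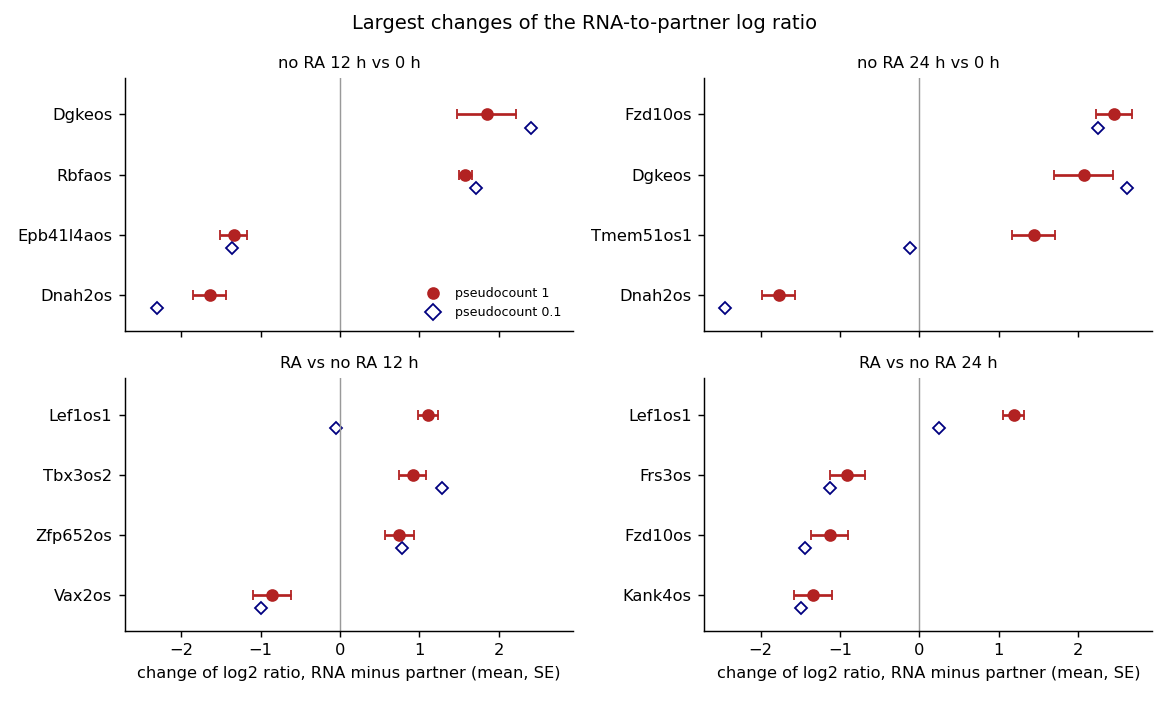
The 4 largest called changes of the log ratio of RNA to partner in each comparison, as log2 differences with standard errors at a pseudocount of 1 (filled) and as values at a pseudocount of 0.1 (open). Fzd10os, Dgkeos, Dnah2os and Kank4os keep their sign, and the values of Lef1os1 at 12 h and Tmem51os1 cross 0.

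Of the 51 RNAs, 39 were called in 1 or more of the 4 comparisons and 12 in none. At 24 h without RA alone, 25.4% of all genes were called higher and 26.5% lower. The share of all genes called in any comparison is not given here, so the count is not read as particular to these RNAs. Crxos and Dnah2os were called in all 4. Slc7a6os, a protein-coding gene that converges with the amino acid transporter Slc7a6, was among the 12, with a lowest library of 72.5 TPM and a highest of 83.0 TPM. Oip5os1, a lincRNA also known as Cyrano, ranged from 3.9 to 9.51 TPM, and its largest change was -0.42 ± 0.27 at 12 h without RA (limma adjusted p = 0.224). Oip5, a centromere protein gene, was higher at that time, by 0.62 ± 0.09 (limma adjusted p = 7.59e-05).

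In the Cyp26a1 set the targeted gene, which encodes an enzyme that breaks down RA, stood at 585, 606 and 592 TPM in wild type and at 4.62, 4.03 and 4.93 TPM in knockout libraries. Of 29 RNAs tested there, 3 were higher and 1 lower in the knockout, against a background of 3.34% and 6.65% of 12848 genes. Of 46 partners tested, 5 were higher and 1 lower. Ptprtos, inside the receptor phosphatase gene Ptprt, stood at 17.4, 19.1 and 15.9 TPM in wild type and at 10.2, 8.98 and 12.4 TPM in the knockout. It fell by 0.69 on the log2 scale (limma adjusted p = 0.0248). Frs3os stood at 0.878, 1.13 and 0.500 TPM and at 2.22, 2.32 and 2.44 TPM, a rise of 0.87 ± 0.16 (limma adjusted p = 0.0199). Replicate 2 was the only wild type library in which it reached 1 TPM. It passed the filter through the knockout group, so its rise was in part fixed by the filter. Dgkeos and Cebpzos were higher by 0.59 ± 0.14 and 0.43 ± 0.08 (limma adjusted p = 0.0482 and 0.0191). The libraries of the groups lay apart for these 4 RNAs, but no RNA was called without wild type replicate 1 or 3 or knockout replicate 2, 1 was called without wild type replicate 2 or knockout replicate 1, and 7 without knockout replicate 3. The shares of all genes under these omissions are not given here, so these counts are not read as particular to the RNAs. Among the partners Notum was higher by 1.32 ± 0.16, Nphs1 by 1.07 ± 0.10, Fzd10 by 0.71 ± 0.09 and Zfhx2 by 0.57 ± 0.13 (limma adjusted p of at most 0.0413).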

How the data were processed

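Gene abundance tables, 1 per library, were used. HISAT2, StringTie and the build mm10 are named in the submitters' processing notes, with no version or setting. Deposited coverage (signal) is the mean read depth per base per the file headers, and the FPKM and TPM values were scaled by the authors for gene length and library size per the file headers. No counts were used, so no count-based test was run.

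The test was limma 3.58.1 (R 4.3.3, eBayes with a trend) on log2(TPM + 1) for genes that reached 1 TPM in 3 or more libraries, all 15 time course libraries in 1 model and the 6 of the Cyp26a1 set in another, with Benjamini-Hochberg adjustment over all genes. The log ratio of RNA to partner was fitted in 1 model over all tested opposite-strand pairs within 5 kb. The pseudocount of 1 shrinks the log2 changes of scarce RNAs. Exons came from GENCODE M21, which matched all 51 RNAs, and the steps were tested on simulated data.

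Titles number the replicates without naming separate cultures, so a p-value covers no more than the spread among these libraries, and that spread may be technical. Members and lists were chosen with earlier results of these data known. All member pairs could be named; values in every library were due for the 6 RNAs with the largest called change and the 4 pairs with the largest change of the log ratio in each comparison, and other members were added after their values were seen. Alternatives were another pseudocount, other filters and scalings, FPKM, no trend, a replicate block, pairs within 1 kb, each library left out and only the groups compared. A covariate for the within-group axis and leaving out a pair of libraries were chosen after seeing the data.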

Additional observations from a re-analysis of the deposited data

Results flagged for a closer look

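The RA difference of 4 opposite-strand RNAs differed between 12 h and 24 h by a test of that difference in the limma model over all genes. For Tbx3os2 the change was 1.55 (adjusted p = 0.00127), with RA libraries higher in 3 of 3 at both times. For Nphs1os it was -1.43 (adjusted p = 0.00166), with overlapping libraries at 12 h and lower RA libraries in 3 of 3 at 24 h. For Lef1os1 it was -1.32 (adjusted p = 0.000399), with RA libraries lower in 3 of 3 at both times. Its levels at 12 h were below 1 TPM, where the pseudocount of 1 shrinks the difference. A change of its RA ratio therefore does not follow. For Zfp652os it was -1.05 (adjusted p = 0.0114), and this RNA passed the filter on low values only through the 24 h group without RA.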

How the results depend on the processing

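Of 109 single changes examined, 84 kept their direction and side of the threshold under every alternative, 23 lost the threshold under at least 1 and 3 reversed. The reversals all came with a pseudocount of 0.1, for the log ratios of Lef1os1 at 12 h with RA (-0.05), Tmem51os1 at 24 h without RA (-0.12) and Zfhx2os at 24 h without RA (-0.07). With FPKM the log ratio change of Tbx3os2 with RA at 24 h was 0.01.

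A mean of at least 5 TPM leaves fewer members to test, with 9, 10, 2 and 4 RNAs and 6, 9, 0 and 1 pairs called at 12 h and 24 h without RA and 12 h and 24 h with RA, and 0 RNAs for the change of the RA effect. The numbers tested at that mean are not given here, so these counts are not read as lower shares. With the within-group axis as a covariate, 16 partners were called at 12 h with RA, 24 pairs at 12 h without RA and 9 RNAs for the change of the RA effect. Leaving out noRA_12h replicate 1 and RA_24h replicate 2 together gave 38 partners and 24 pairs at 24 h with RA, 25 pairs at 12 h without RA and 8 RNAs for the change of the RA effect. A pseudocount of 0.1 gave 1 pair at 12 h with RA, and FPKM gave 2 RNAs in the knockout. The causes were not tested, and the shares of all genes called under these settings or the omissions below are not given here. Leaving out libraries gave 7 to 13 partners at 12 h with RA (13 without noRA_12h replicate 2) and 20 to 38 at 24 h with RA (38 without RA_24h replicate 2), 11 to 25, 2 to 7 and 8 to 24 pairs at 12 h without RA, 12 h with RA and 24 h with RA, 4 to 8 RNAs for the change of the RA effect, and 0 to 7 RNAs in the knockout.

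With a replicate block 20, 30, 6 and 17 RNAs were called in the same order of comparisons, against 20, 32, 7 and 17. Residuals of same-numbered libraries correlated at -0.84 to 0.42 with a median of 0.00. Those of differently numbered libraries correlated at -0.80 to 0.87 with a median of 0.01. The within-group axis held most of the variance of these residuals, so the check showed no pairing by number but cannot exclude a smaller one. No other scaling moved the median of all genes by more than 0.06. The median coverage of the RNAs was 1.54 to 3.21 reads per base.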
